A study of Mus musculus with 6 samples.

Results

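The core spliceosome proteins described here are 39 proteins of the major spliceosome, the machine that removes introns from pre-mRNA. They were chosen by gene symbol among the protein-coding genes, and all 39 were found among the 56748 genes listed and passed the filter on low values that left 17114 genes to test. Their ribosome footprints were compared between 3 libraries from Mov10 KO mice and 3 libraries from WT mice. Cells of both genotypes were Lin-c-Kit+ cells taken 12 days after irradiation with 4.5 Gy, so the WT libraries are irradiated too and neither group shows the effect of irradiation. Age, sex, the way the Mov10 allele was made and whether the 3 libraries of a genotype came from separate animals could not be read from the labels, so the p-values measure the spread between libraries, which may be technical.

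The spliceosome is built anew on each intron from small nuclear ribonucleoproteins (snRNPs), each a small RNA wrapped in a ring of Sm proteins and joined by proteins of its own. The U1 snRNP marks the 5′ splice site, while Sf1 and the U2AF pair mark the branch point, the pyrimidine tract and the 3′ splice site. The U2 snRNP, held by the SF3a and SF3b complexes, then takes over the branch point. The U4/U6.U5 tri-snRNP joins, the U5 protein Snrnp200 unwinds U4 from U6, and the Prp19 complex keeps the activated enzyme together around Prpf8. Cells that divide and translate at a high rate depend on this machinery, and mutations in SF3B1 and U2AF1 are known from human myeloid neoplasms.

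A footprint is the stretch of mRNA that a translating ribosome shields from a nuclease, so footprints on a gene follow both its mRNA level and its translation, and mRNA was not analysed here. All levels are normalized reads, that is, reads divided by 1 size factor per library, with mean ± SD over the 3 libraries of a genotype (n = 3). Log2 fold changes are Mov10 KO over WT on the log2(normalized reads + 1) scale, so that values of genes with few reads depend on the added 1 and on libraries at 0. A gene is called where its Benjamini-Hochberg adjusted p from limma over all 17114 genes was under 0.05. The Mov10 KO libraries held 1118345 to 1352517 reads and the WT libraries 2260348 to 2499634, and depth thus went with genotype. A count of 0 allows up to 3 reads, or 4.02 to 4.85 normalized reads in Mov10 KO and 1.84 to 2.04 in WT.

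Mov10, the RNA helicase gene named as knocked out, had 51.0, 89.0 and 46.3 normalized reads in the Mov10 KO libraries, against 110.4, 106.2 and 104.3 in the WT libraries. All Mov10 KO libraries lay below all WT libraries, but the difference did not pass the test (log2 fold change -0.84, SE 0.27, adjusted p = 0.0598), and without Mov10 KO replicate 2 the spliceosome calls were 14 higher and 4 lower, beside 12% and 14.5% of all genes. Kit, the receptor that defines the gate, was at 1085 to 1157 in Mov10 KO and 1083 to 1115 in WT. Summed progenitor markers were 3758 to 4260 in Mov10 KO against 3500 to 3560 in WT (2 of 8 higher), of which Myb held 2215 to 2619 and 1907 to 1967. Summed neutrophil granule markers were 45676 to 47667 against 30579 to 36467 (3 higher and 3 lower of 8). Mpo carried that direction, and without it the sum ran the other way, at 16916 to 17813 in Mov10 KO and 19126 to 22234 in WT. Summed erythroid markers were 2388 to 2520.0 against 1227 to 1319 (4 higher and 1 lower of 8), while the globin gene Hba-a1 was at 0 to 1.62 and 19.5 to 27.9. Summed B cell markers were 1923 to 2066 against 990.1 to 1030.3 (5 higher of 8), and 570 to 679 against 238 to 251 without Ighm. Among megakaryocyte markers 1 of 5 was higher and Gp1bb was at 0 in all libraries, and none of 6 T cell or 6 macrophage markers was called. More cells of a type and more footprints per cell cannot be told apart in these bulk libraries, and the part of these markers in the spliceosome values was not tested.

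Of the 39 spliceosome genes, 14 were higher in Mov10 KO, 3 were lower and 22 were not called, while over all genes tested 10.3% were called higher and 10.9% lower. The higher genes were Ppig, Sart1, Prpf6, U2af1, Xab2, Snrpb and all 4 listed U5 proteins (Eftud2, Snrnp200, Prpf8 and Snrnp40). The rest of them were 4 of the 8 listed U2 proteins (Sf3b1, Sf3b3, Sf3b2 and Sf3a3). The lower genes were Bcas2, Snrpd3 and Snrpa. The median log2 fold change was 0.20 over the 39 genes and -0.17 over all genes tested. In 18 of the 39 genes all Mov10 KO libraries lay above all WT libraries, a pattern seen in 16.9% of all genes, and in 7 all lay below, a pattern seen in 22.9%. With reads scaled by library totals, which moved the median of all genes by -0.20, the calls were 11 higher and 6 lower, beside 7.48% and 16.6% of all genes. Cyclic loess, which moved that median by 0.17, gave 12 higher and 3 lower, beside 9.92% and 8.11%.

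**Figure D1:**
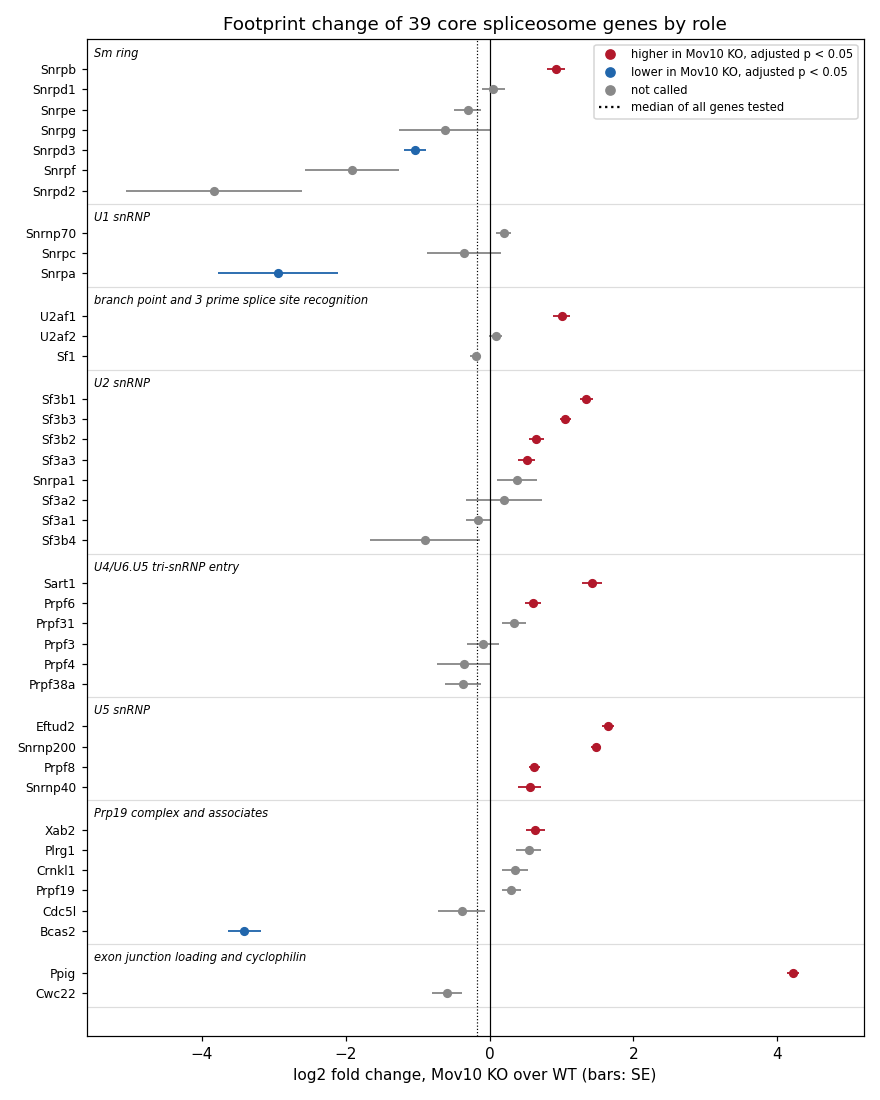
Log2 fold change of footprints, Mov10 KO over WT (horizontal axis; bars are the SE from limma), for the 39 spliceosome genes grouped by role. Red points were called higher (14), blue points lower (3) and grey points not called (22), and the dotted line is the median of all genes tested at -0.17.

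The higher calls lay among the spliceosome genes with many footprints. Among the 32 that averaged 50 or more normalized reads, 14 were higher and 2 lower, while among all genes above that level 21.8% were higher and 14.1% lower. Among the 7 spliceosome genes under that level none was higher and 1 was lower, beside 3.54% and 9.1% of all such genes. Across the 39 genes the log2 fold change and the WT level had a Spearman correlation of 0.63, against -0.08 across all 17114 genes. With gene length the correlation was 0.45 for the spliceosome genes and 0.03 for all genes. The points of each correlation share the same 6 libraries, and genes are not independent replicates.

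**Figure D2:**
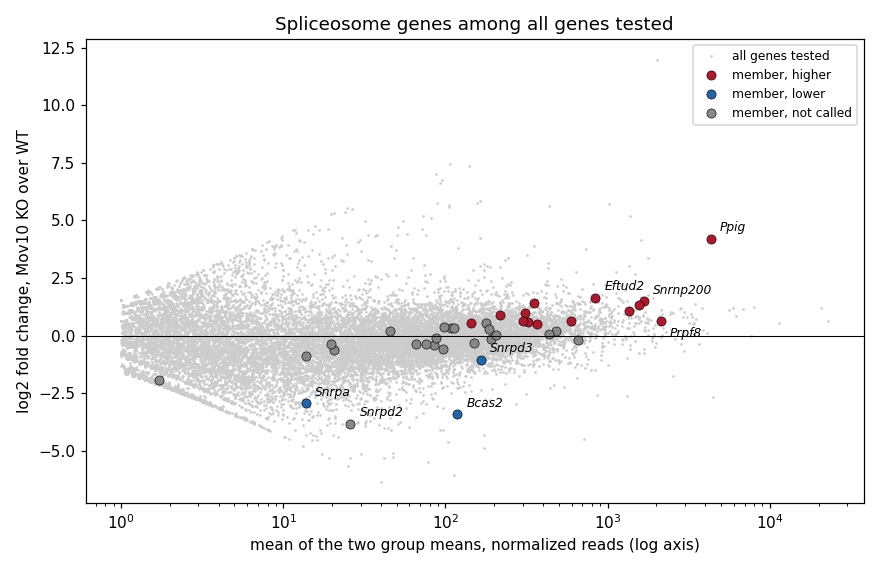
Log2 fold change, Mov10 KO over WT (vertical axis), against the mean of both group means in normalized reads (horizontal log axis) for all genes tested (light grey) and the spliceosome genes (large points, coloured by call). Ppig stands at 4.22 among genes of its level, Bcas2 at -3.41, and the called higher genes lie to the right of most uncalled ones.

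Ppig, a nuclear cyclophilin with an arginine and serine rich tail that is found with the spliceosome, was the most raised of the 39. It had 8758, 8597 and 7307 normalized reads in Mov10 KO, against 437, 412 and 471 in WT. Every Mov10 KO library lay far above every WT library, with means of 8221 ± 795 and 440.1 ± 29.3, an 18.7-fold difference (log2 fold change 4.22, SE 0.09, adjusted p = 7.98e-08). Ppig had the smallest p but 1 of all genes tested, and ranked 7 by normalized reads in Mov10 KO and 587 in WT. It lies on chromosome 2 (69552889 to 69584356, plus strand, GRCm39, as do all gene positions below), where a pseudogene on the opposite strand, Gm13622, overlaps it by 433 bases and had 18.4 ± 8.21 and 3.83 ± 1.49. Cwc22, which brings the exon junction helicase Eif4a3 to the spliceosome, had 77.4 ± 16.1 in Mov10 KO and 116 ± 9.38 in WT, with no overlap between the groups, and did not pass the test (adjusted p = 0.0787), but did without Mov10 KO replicate 2 (0.0203) and with library totals (0.0255).

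The proteins of the U5 snRNP, which carry the catalytic centre, had all 4 genes called higher, with a summed level of 6484 ± 273 in Mov10 KO and 3072 ± 166 in WT. Eftud2, the GTPase that governs Snrnp200, had 1222, 1244 and 1360.2 normalized reads in Mov10 KO, against 438, 391 and 392 in WT (3.13-fold, log2 fold change 1.65, SE 0.09, adjusted p = 1.30e-05). Snrnp200, the helicase that unwinds U4 from U6, had 2626, 2447 and 2301 in Mov10 KO, against 889, 843 and 896 in WT (2.81-fold, log2 fold change 1.49, SE 0.07, adjusted p = 7.56e-06). For both genes the lowest Mov10 KO library lay far above the highest WT library. Prpf8, the scaffold that holds the active site, had 2741, 2369.6 and 2625 in Mov10 KO, against 1800.3, 1552 and 1665 in WT (1.54-fold, log2 fold change 0.62, SE 0.08, adjusted p = 0.00111). The groups of Prpf8 did not overlap either, but cyclic loess gave a log2 fold change of 0.03 (adjusted p = 0.829), and the fit without a variance trend an adjusted p of 0.0837. Snrnp40, the WD40 repeat protein of the particle, had 170.3, 152 and 194 in Mov10 KO, against 106, 116 and 127 in WT (1.48-fold, adjusted p = 0.0432). Its call was lost without Mov10 KO replicate 1 or 3 or any single WT library, with adjusted p from 0.0512 to 0.152. Library totals (adjusted p = 0.185), TMM (0.0647) and DESeq2 (0.0522) did not call Snrnp40 either. In all, 12 of 23 alternatives lost the call. Snrnp200 lies at chromosome 2, 127050306 to 127082371, Eftud2 at chromosome 11, 102729299 to 102771811, and Prpf8 at chromosome 11, 75377642 to 75400275.

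The U2 snRNP genes split within the SF3b and SF3a complexes, with 4 higher, none lower and 4 not called of 8. Sf3b1, the large SF3b subunit that clamps the branch helix, had 2084, 2567 and 2089 normalized reads in Mov10 KO, against 865, 896 and 875 in WT (2.56-fold, log2 fold change 1.35, SE 0.09, adjusted p = 3.64e-05). Sf3b3, the propeller protein that holds Sf3b1, had 1971, 1713 and 1833 in Mov10 KO, against 836, 929 and 887 in WT (2.08-fold, log2 fold change 1.06, SE 0.08, adjusted p = 6.14e-05). Both genes had 3 Mov10 KO libraries well above their highest WT library. Sf3b2, another SF3b subunit, had 814, 704 and 671 in Mov10 KO, against 484, 461 and 442 in WT (1.58-fold, adjusted p = 0.00303). Sf3a3, a subunit of SF3a, had 390.2, 471 and 433 in Mov10 KO, against 332, 274 and 298 in WT (1.43-fold, adjusted p = 0.0189). Groups of both genes were separate, and the Sf3a3 call was lost without WT replicate 2 (adjusted p = 0.0926), without WT replicate 3 (0.0867), by library totals (0.118) and by cyclic loess (0.109). The uncalled members overlapped between genotypes: Sf3a1 had 182 ± 32.4 in Mov10 KO and 201 ± 14.9 in WT, and Snrpa1, a U2 protein outside SF3a and SF3b, had 112 ± 38.0 and 83.3 ± 13.2. Sf3b4, the SF3b subunit with RNA recognition motifs, had 2.68, 6.47 and 26.0 in Mov10 KO, a wide spread around the WT values of 14.9, 17.8 and 15.0. Sf3a2 had 57.7, 82.5 and 17.4 in Mov10 KO, against 42.2, 36.2 and 36.1 in WT.

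Recognition of the 3′ end of the intron involved 1 called gene of 3. U2af1, the small U2AF subunit that reads the AG at the 3′ splice site, had 396, 388 and 457 normalized reads in Mov10 KO, against 221, 195 and 200.3 in WT (2.01-fold, log2 fold change 1.00, SE 0.12, adjusted p = 0.000828). Its partner U2af2, which binds the pyrimidine tract, had 448 ± 20.4 in Mov10 KO and 421 ± 5.27 in WT, with overlapping groups and an adjusted p of 0.540. Sf1, the first protein to bind the branch point, was at 611 ± 22.0 in Mov10 KO and 696 ± 6.74 in WT. All Mov10 KO libraries of Sf1 lay below the WT libraries, and the difference did not pass the test (log2 fold change -0.19, adjusted p = 0.121). It was called lower by cyclic loess (log2 fold change -0.53, adjusted p = 0.00248), library totals (-0.42, 0.00652) and TMM (-0.26, 0.0452). The difference between the changes of U2af1 and U2af2 was not tested.

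Of the 6 genes for entry of the U4/U6.U5 tri-snRNP, Sart1 and Prpf6 were higher and none was lower. Sart1, which links U5 with U4/U6, had 456, 477 and 598 normalized reads in Mov10 KO, against 212, 173 and 179.9 in WT (2.71-fold, log2 fold change 1.43, SE 0.14, adjusted p = 0.000329). Prpf6, the bridge of the same particle, had 426, 389 and 350.2 in Mov10 KO, against 252, 257 and 253 in WT (1.53-fold, adjusted p = 0.00774). Neither gene overlapped between genotypes, though Prpf6 had an adjusted p of 0.0503 without WT replicate 3 and of 0.0878 without a variance trend. The U4/U6 proteins Prpf31, Prpf3 and Prpf4 were not called. Prpf31 had 121 ± 11.5 in Mov10 KO and 95.7 ± 7.80 in WT, and Prpf3 had 85.4 ± 19.2 and 89.7 ± 7.71. Prpf4 had 44.3, 46.9 and 122 in Mov10 KO, 1 library above and 2 below the WT values of 74.7, 83.5 and 85.9, and was lower without Mov10 KO replicate 3 (adjusted p = 0.0211). Prpf38a, needed to activate the assembled spliceosome, had 57.4 ± 9.09 in Mov10 KO and 74.6 ± 13.3 in WT.

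The Prp19 complex and its associates held the lower gene with the smallest p, Bcas2, beside 1 higher gene and 4 that were not called. Bcas2, a small subunit of the complex core (chromosome 3, 103078971 to 103086482), had 24.1, 17.8 and 17.4 normalized reads in Mov10 KO, against 204, 228 and 219 in WT. These are 18, 11 and 12 reads in Mov10 KO and 314, 372 and 322 in WT. Means of 19.8 ± 3.79 and 217 ± 12.4 made Bcas2 11.0-fold lower (log2 fold change -3.41, SE 0.23, adjusted p = 3.88e-05). None of the other subunits that share the core with Bcas2 was called. Prpf19, the ubiquitin ligase, had 204 ± 9.09 in Mov10 KO and 165 ± 14.5 in WT (adjusted p = 0.153), with no overlap between the groups. Cdc5l, its Myb-domain partner, had 122, 53.4 and 55.0 in Mov10 KO, against 86.3, 98.2 and 96.1 in WT (adjusted p = 0.435, and 0.0191 without Mov10 KO replicate 1). Crnkl1, a helical repeat protein of the same assembly, had 126 ± 16.0 in Mov10 KO and 98.4 ± 11.0 in WT (adjusted p = 0.215), again without overlap. Plrg1, the WD40 subunit, had 212, 249 and 172 in Mov10 KO, against 155, 131 and 144 in WT, just outside the threshold (adjusted p = 0.0545), while Snrnp40 at 0.0432 lay just inside. Plrg1 passed without Mov10 KO replicate 3 (adjusted p = 0.0187) and by edgeR (0.0305). Xab2, a long helical repeat protein of the activated spliceosome, had 409, 366 and 318 in Mov10 KO, against 254, 225 and 221 in WT (1.56-fold, adjusted p = 0.0119). The Xab2 call was lost without WT replicate 2 (adjusted p = 0.0654) or WT replicate 3 (0.0697), by library totals (0.0548) and without a variance trend (0.0951).

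The Sm ring differed among its own 7 subunits, with Snrpb higher, Snrpd3 lower and a summed level of 767 ± 108 in Mov10 KO and 807 ± 31.9 in WT. Snrpb, the SmB protein, had 284, 301 and 269 normalized reads in Mov10 KO, against 156, 142 and 151 in WT (1.90-fold, log2 fold change 0.92, SE 0.12, adjusted p = 0.00165). Its near-identical paralog Snrpn was listed at 0 in all 6 libraries. Snrpd3, the SmD3 protein that pairs with SmB in the ring, had 118, 107 and 99.8 in Mov10 KO, against 241, 206 and 221 in WT (2.06-fold lower, log2 fold change -1.03, SE 0.15, adjusted p = 0.00224). Thus the subunits of 1 dimer lay on opposite sides of WT, each with no overlap between the groups. Snrpd1 and Snrpe overlapped between genotypes, at 210 ± 38.9 and 136 ± 29.0 in Mov10 KO and 201 ± 7.54 and 165 ± 10.4 in WT. Snrpd2 had 0, 17 and 0 reads in Mov10 KO, against 62, 81 and 56 in WT, and did not pass the test (adjusted p = 0.0561), with 1 Mov10 KO library far from the other 2. It was called lower without Mov10 KO replicate 2 (adjusted p = 0.00295), with library totals (0.0407) and among protein-coding genes only (0.0485). A pseudocount of 10 (0.0385) and voom (0.0146) called it too. It was not called in 16 of 22 alternatives, among them edgeR (adjusted p = 0.103) and DESeq2 (0.488). Over the alternatives its log2 fold change ranged from -6.03 to -1.76. Snrpf had no read in any Mov10 KO library and 9, 6 and 1 reads in WT. The WT mean of 3.40 normalized reads lies under the level that a count of 0 allows in a single Mov10 KO library. That floor does not cover 3 libraries at 0 together. Snrpf had an adjusted p of 0.0704, of 0.0491 without WT replicate 3 and of 0.0233 with a pseudocount of 0.1. It was not called in 18 of 20 alternatives, among them DESeq2 (0.294). Snrpg had 13.4, 35.6 and 5.79 normalized reads in Mov10 KO, against 26.6, 23.9 and 17.7 in WT. Short genes with processed pseudogenes can lose or gain reads when these are assigned, so that levels of the small Sm genes are uncertain.

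Among the U1 snRNP proteins 1 of 3 was called. Snrpa, which binds a stem loop of the U1 RNA, had 0, 2 and 5 reads in Mov10 KO and 42, 36 and 34 in WT, or 3.49 ± 3.62 and 24.2 ± 2.73 normalized reads. The Mov10 KO mean lies under the level that a count of 0 allows in a single library there, so no fold is given. Snrpa was called lower (log2 fold change -2.94, SE 0.83, adjusted p = 0.0373), and the call was lost without Mov10 KO replicate 2 (0.0653), without any single WT library (0.149 to 0.161) and when all libraries were thinned to equal depth (0.0552). BC024978 lies on the opposite strand, shares 491 bases with Snrpa and was also lower, at 1.95 ± 0.83 in Mov10 KO and 18.5 ± 2.69 in WT (adjusted p = 0.0146). Whether counting used the strand is not given in the sources used here, so reads of overlapping genes cannot be told apart. Snrnp70, the U1-70K protein that contacts SR proteins, had 513 ± 30.8 in Mov10 KO and 448 ± 40.1 in WT. Snrpc, which steadies the pairing of U1 with the 5′ splice site, had 16.4 ± 3.04 and 23.0 ± 13.0.

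**Figure D3:**
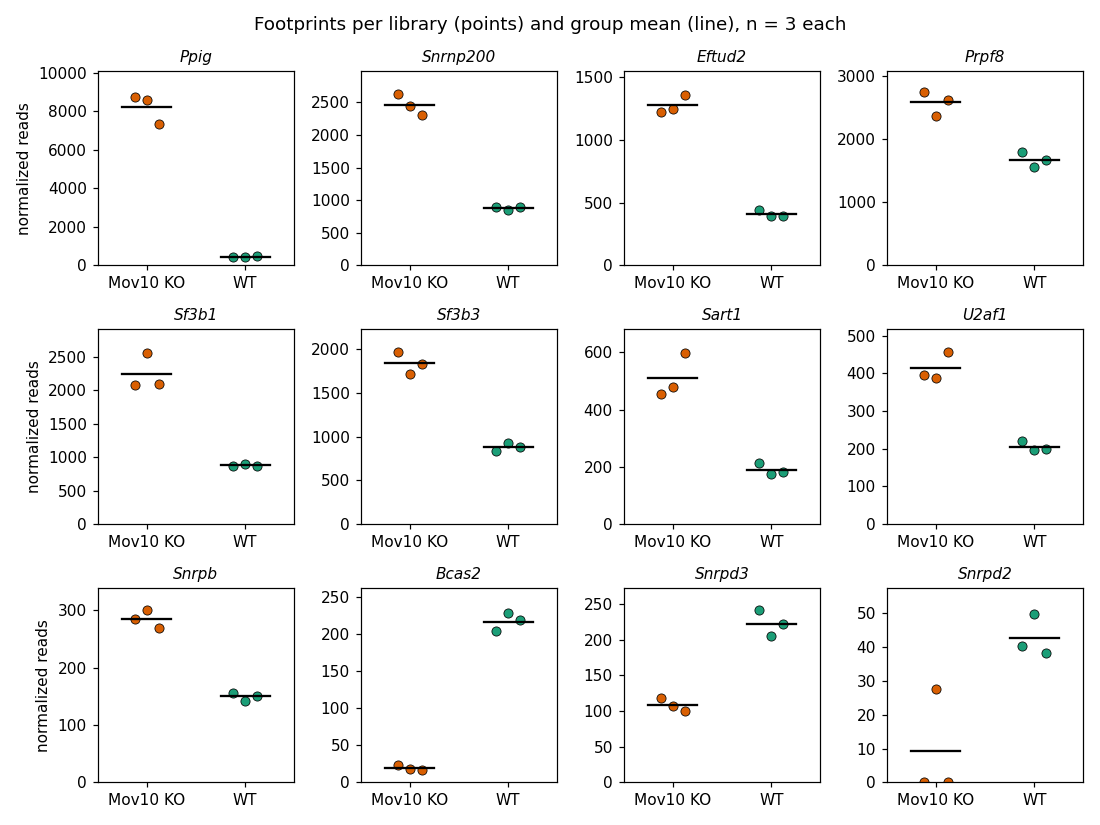
Normalized reads in each library (points) and group means (lines) for 11 called spliceosome genes and Snrpd2, Mov10 KO left of WT, each panel with its own linear axis from 0. The Mov10 KO points of Ppig, 7307 to 8758, lie above the WT points, 412 to 471, and those of Bcas2, 17.4 to 24.1, lie below the WT points, 204 to 228.

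Gene overlaps touched 16 of the 39 spliceosome genes, including 9 of the 17 called ones, and the overlapping gene lay on the opposite strand except for Sf3a3. Next to Ppig and Snrpa, the called genes with an overlapping gene of more than 20 normalized reads were Sf3b3, Snrpd3 and Prpf6. Cog4, which shares 188 bases with Sf3b3, had 194 ± 39.2 in Mov10 KO and 129 ± 22.0 in WT. Gucd1, which shares 422 bases with Snrpd3, had 49.8 ± 20.2 in Mov10 KO and 32.3 ± 6.86 in WT, with overlapping groups (adjusted p = 0.387). Zfp512b, which shares 936 bases with Prpf6, had 43.6 ± 20.8 in Mov10 KO and 102 ± 14.0 in WT and was lower (adjusted p = 0.0440), while Prpf6 was higher. The other overlapping genes of called ones, D330050I16Rik for Sart1, Gm50203 for Sf3b2, Samd10 for Prpf6, Camsap3 for Xab2, and Gm12917 and Mir697 for Sf3a3, averaged 0 to 8.24 in either genotype. Eftud2, Snrnp200, Sf3b1, Prpf8 and Bcas2 had no overlapping gene with reads.

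Per kilobase of gene length, the order of the spliceosome genes changed at its top. The length is the deposited one for each gene, and which part of it is coding is not given. Ranks between genes may follow that part, which was not tested, while the ratio of the genotypes within a gene does not depend on it. In Mov10 KO Ppig led with 1012 ± 97.9 normalized reads per kb, followed by Prpf8 with 346 ± 25.5 and Snrnp200 with 314 ± 20.8, the last pair within their spread of each other. In WT Prpf8 led with 224 ± 16.7 per kb, ahead of Snrpe with 120 ± 7.59, Sf1 with 112 ± 1.08 and Snrnp200 with 112 ± 3.66, and these next genes did not differ beyond their spread. Ppig ranked 1 of 39 in Mov10 KO and 16 in WT, and Eftud2 ranked 9 and 20. Bcas2, at 4.50 ± 0.86 per kb in Mov10 KO and 49.5 ± 2.82 in WT, ranked 35 and 19. At the bottom, Snrpf had no read in Mov10 KO and 3.95 ± 3.01 per kb in WT, and Snrpc had 2.51 ± 0.47 and 3.53 ± 1.99.

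**Figure D4:**
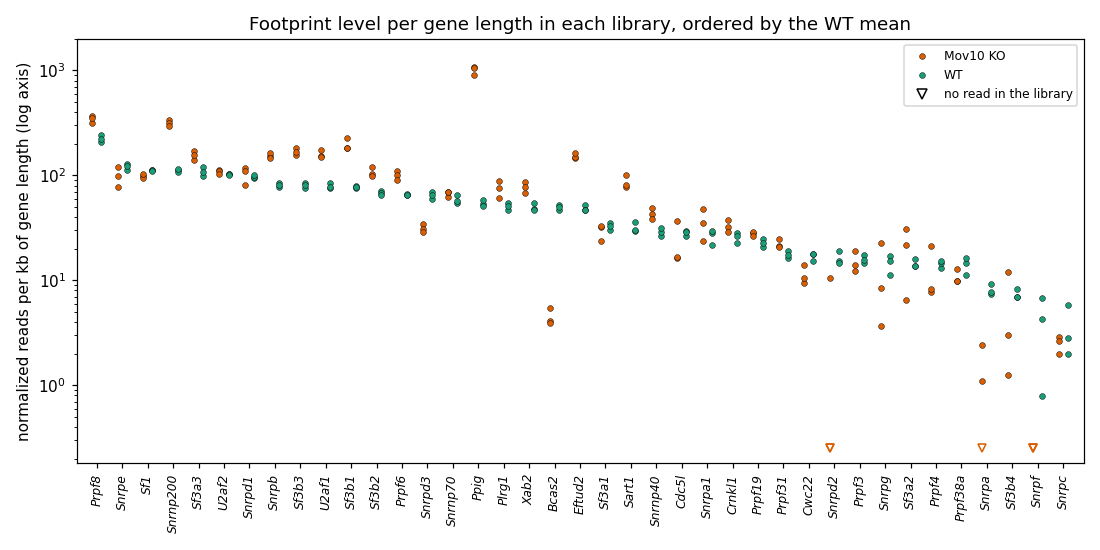
Normalized reads per kb of gene length in each library (log axis) for the 39 spliceosome genes, ordered by their WT mean, Mov10 KO left of WT, with open triangles for libraries without a read. Ppig stands highest in Mov10 KO at a mean of 1012, and Prpf8 is highest in WT at 224. Gene length is as deposited, and its coding part is not given.

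Summed over the 39 genes, footprints took 1.40% ± 0.060 of the reads in Mov10 KO and 0.702% ± 0.011 in WT. The totals for these shares leave out Camp, Igkc, Rpl27, Rps29 and Ssr4, which did not enter the fit. Ppig alone took 0.453% ± 0.045 in Mov10 KO and 0.0285% ± 0.0019 in WT. Without Ppig the share was 0.947% ± 0.015 in Mov10 KO and 0.674% ± 0.011 in WT. The 5 large proteins Prpf8, Snrnp200, Sf3b1, Sf3b3 and Eftud2 made up 0.573% ± 0.013 of reads in Mov10 KO and 0.305% ± 0.0042 in WT. The groups of each of these shares did not overlap.

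Libraries of Mov10 KO spread more than those of WT, for spliceosome genes as for others. The SD was larger in Mov10 KO for 32 of the 39 genes (82.1%), beside 82.8% of all genes tested. Among the 32 spliceosome genes averaging 50 or more normalized reads, the median coefficient of variation was 11.2% in Mov10 KO and 7.33% in WT. Over all 6307 genes of that level it was 21.5% in Mov10 KO and 7.61% in WT.

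Promoter sequence is shown for the highest and lowest of the changed genes and for the large U5 and U2 proteins, to set their start regions beside each other. Sequences are the 150 bases before the annotated start, from RefSeq on GRCm38.p6, a different build from that of the read counts. In the order printed they are chr2:69722938-69723087 (plus strand), chr2:127208236-127208385 (plus), chr11:75486627-75486776 (plus), chr1:55027479-55027628 (minus) and chr3:103171505-103171654 (plus). Capitals mark matches on either strand to the ETS motif CCGGAAG, the NRF1 motif (GCGC, any base, then TGCGC), the CCAAT box CCAAT and the GC box GGGCGG.
Ppig: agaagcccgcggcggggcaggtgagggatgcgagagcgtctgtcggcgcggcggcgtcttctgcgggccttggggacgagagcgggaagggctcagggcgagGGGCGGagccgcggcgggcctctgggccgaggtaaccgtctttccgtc
Snrnp200: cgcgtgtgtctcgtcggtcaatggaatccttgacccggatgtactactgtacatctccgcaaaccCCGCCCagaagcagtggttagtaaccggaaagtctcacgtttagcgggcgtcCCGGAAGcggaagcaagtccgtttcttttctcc
Prpf8: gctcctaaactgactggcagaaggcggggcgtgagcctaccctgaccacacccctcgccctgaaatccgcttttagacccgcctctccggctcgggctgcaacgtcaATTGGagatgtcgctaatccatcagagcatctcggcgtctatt
Sf3b1: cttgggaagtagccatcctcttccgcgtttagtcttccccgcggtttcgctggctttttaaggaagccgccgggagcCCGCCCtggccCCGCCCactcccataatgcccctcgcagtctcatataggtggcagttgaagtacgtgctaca
Bcas2: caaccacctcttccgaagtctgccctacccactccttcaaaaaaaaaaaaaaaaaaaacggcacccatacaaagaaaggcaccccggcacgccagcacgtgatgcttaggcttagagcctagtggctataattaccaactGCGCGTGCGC

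Of the 39 genes, 33 matched the promoter table. The ETS motif was present in 10 of these 33 genes (30.3%), among them Snrnp200, and in 5.52% of all 32851 promoters. The NRF1 motif, which lies at the end of the Bcas2 window, was present in 8 (24.2%) and in 3.09% of all promoters. A CCAAT box, present once in the Prpf8 window, was found in 12 (36.4%) and in 24.5% of all promoters. A GC box, present 2 times in the Sf3b1 window and 1 time each for Ppig and Snrnp200, was found in 12 (36.4%) and in 28.6% of all. The TATA box TATAAA was in 1 of the 33 (3.03%) and in 7.57% of all promoters, and the E-box CACGTG in 3 (9.09%) and 4.3%. Over protein-coding promoters alone the ETS motif was in 7.3%, the NRF1 motif in 4.32% and the GC box in 38.0%. Some genes have several promoters in the table, and a gene counts once if any of its promoters has the motif. A match describes the letters and is no evidence of binding.

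Beyond the 39 genes, 95 further splicing genes were listed and 93 were tested, of which 20 were higher in Mov10 KO (21.5%) and 12 lower (12.9%), with a median log2 fold change of -0.06. Over all genes tested 10.3% were higher and 10.9% lower, and over all genes averaging 50 or more normalized reads 21.8% and 14.1%. That level was reached by 66 of the 93 genes, so neither background is matched to them in level. Their calls rest on single libraries to different degrees: 16 of the 20 higher calls but only 1 of the 12 lower calls remained with each library left out in turn. Without WT replicate 1, 2 or 3, 21, 17 and 18 of these genes were called. With library totals 17 were higher and 18 lower, beside 7.48% and 16.6% of all genes.

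The LSm proteins, which form a ring on the U6 RNA as the Sm proteins do on the others, had 3 of 8 lower and none higher. Lsm8, the subunit that sets the nuclear ring apart, was at 70.2 ± 21.4 in Mov10 KO and 148 ± 8.88 in WT (adjusted p = 0.0137). Lsm3 was at 44.5 ± 14.9 and 87.4 ± 10.5 (adjusted p = 0.0485). Lsm5 had no read in Mov10 KO and 6.11 ± 3.01 normalized reads in WT (adjusted p = 0.0138). Its WT values of 3.90, 4.91 and 9.54 compare with a floor of 4.02 to 4.85 in a single Mov10 KO library. With each library left out in turn, the adjusted p reached 0.0773 for Lsm8, 0.191 for Lsm3 and 0.0487 for Lsm5. Among 22 other snRNP proteins 6 were higher and 3 lower. The SF3b subunit Phf5a was at 220.3 ± 2.15 in Mov10 KO and 101 ± 4.69 in WT (2.17-fold, adjusted p = 0.00104). Of its SF3b partners, Sf3b1, Sf3b3 and Sf3b2 were higher, while Sf3b4, Sf3b5 and Sf3b6 were not called (adjusted p = 0.447, 0.633 and 0.913). Ddx46, the helicase that prepares U2 for the branch point, was 1.77-fold higher (adjusted p = 0.000575), and the U5 assembly protein Cd2bp2 was 3.01-fold higher (adjusted p = 0.00154). The U1-associated Luc7l, at 144 ± 34.2 in Mov10 KO and 290.2 ± 34.9 in WT, was lower (adjusted p = 0.00807), as were Prpf39 and Dnajc8.

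A mixed list of further spliceosome proteins, from stages before activation to the catalytic steps, had 9 higher and 4 lower of 29 tested. Rbm22, which contacts the catalytic RNA core, was at 776 ± 28.7 in Mov10 KO and 259 ± 5.82 in WT (2.99-fold, adjusted p = 1.73e-05). Smu1 was 2.75-fold higher (adjusted p = 6.95e-05). Slu7, which helps choose the 3′ splice site in the second step, was at 321 ± 47.8 in Mov10 KO and 61.4 ± 9.80 in WT (5.22-fold, adjusted p = 9.14e-05). On the lower side stood the helicase Dhx16 at 224 ± 52.3 in Mov10 KO and 416 ± 64.0 in WT (adjusted p = 0.0110), the kinase Prpf4b and Ctnnbl1. In the exon junction complex, left on mRNA after splicing, 2 of 7 were higher: Rbm8a was at 899 ± 53.4 in Mov10 KO and 205 ± 12.8 in WT (4.38-fold, adjusted p = 7.56e-06), and Acin1 was 2.07-fold higher. A list of 9 nuclear cyclophilins held 4 higher genes, of which Ppig is 1 of the 39. Ppil1 (2.30-fold) and Ppie (2.14-fold) are already counted in the mixed list, so that Ppwd1 (2.13-fold) is the only further call. Of 9 proteins of the minor spliceosome, Snrnp48 was higher (2.14-fold) and the others were not called. Of 14 tested genes for snRNP assembly, Ddx20, a helicase of the SMN complex, was higher (1.96-fold), while the import adaptor Snupn and the cap methylase Tgs1 were lower (1.85-fold and 2.07-fold).

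By the authors' deposited table, 15 of the 39 spliceosome genes were higher and 3 lower at an adjusted p under 0.05, beside 6.57% and 5.19% of the 28136 genes with reads. The added gene was Plrg1. By edgeR's quasi-likelihood test on the recovered reads 15 were higher and 3 lower, beside 16.5% and 13% of the genes it tested. DESeq2 called 14 higher, with Plrg1 in place of Snrnp40, and 3 lower, beside 11.9% and 9.1%. With all libraries thinned to equal depth limma called 14 higher and 2 lower, beside 9.04% and 8.36%.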

How the data were processed

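Protected RNA fragments of 24 to 36 nt were sequenced in 3 Mov10 KO and 3 WT libraries, per the labels' protocols. The authors deposited a signal per gene in which each library's reads are divided by 1 size factor: undoing that division gave whole reads, to within 0.05, for 99.98% of values. No aligner, counting tool or use of strand is named (not given in the sources used here), and the build is GRCm39 per the submitters' processing notes. The table also holds deposited log2 fold changes and p-values, raw and adjusted, made by the authors with an unnamed test.

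Genes averaging at least 1 normalized read over the libraries entered limma 3.58.1 (R 4.3.3, variance trend, genotype as the only term) as log2(value + 1), with Benjamini-Hochberg adjustment over all of them. Recovered reads were tested with edgeR 4.0.16 and DESeq2 1.42.0 as alternatives. Other alternatives were a replicate block, voom, TMM, upper-quartile, library-total and cyclic loess scaling, no trend, robust estimation, other filters, pseudocounts of 0.1 and 10, a threshold of 0.01, thinning to equal depth and each library left out. The genes Camp, Igkc, Rpl27, Rps29 and Ssr4 did not enter the fit because their values are not whole multiples of their library's step. Without molecular identifiers, the floor of 3 reads covers counting error only. The procedure was checked on simulated data whose setting for spread was the same in both genotypes. That check does not cover the larger spread seen in Mov10 KO.

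The spliceosome genes and all other lists were chosen with earlier results of these data known, and roles were assigned from textbook knowledge. Named are all 39 genes, up to 3 called genes per direction of each other splicing list, Mov10, and genes overlapping a called gene. Ppie, Snrpn, Ddx23, Txnl4a, Sf3b5, Sf3b6 and the cell type markers fall outside this rule. Tables and figures were made with Python 3.11.15, pandas 2.3.3, numpy 2.4.6 and matplotlib 3.10.9.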

Additional observations from a re-analysis of the deposited data

How the results depend on the processing

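Across 23 alternatives, 8 higher genes (Eftud2, Ppig, Sart1, Sf3b1, Sf3b3, Snrnp200, Snrpb and U2af1) and the lower genes Bcas2 and Snrpd3 kept their direction and their call. No called spliceosome gene changed direction. The 14 higher calls became 8 without a variance trend and 10 to 14 with each library left out, and the 3 lower calls became 6 with library totals and 2 to 4 with each library left out. The 32 calls among other splicing genes became 19 at an adjusted p under 0.01, 20 without a variance trend and 17 to 36 with each library left out. Over all genes 3628 calls (48.4% of them higher) became 1427 at 0.01 and 1360.0 to 4599 with each library left out (1592, 1385 and 1360.0 without WT replicate 1, 2 and 3), and library totals gave 31.0% higher. Without Mov10 KO replicate 1, 2 and 3 the calls over all genes were 4599, 4526 and 4580, more than in the main fit. The cause of these changes was not tested.

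Uncalled genes changed sign on the log2 scale. Library totals gave -0.0349 for Snrnp70, -0.0275 for Sf3a2, -0.144 for U2af2 and -0.178 for Snrpd1. Cyclic loess gave -0.0757 for Snrnp70, -0.163 for U2af2 and -0.0362 for Snrpd1, and TMM -0.0158 for Snrpd1. With each library left out, Sf3a2 ranged from -0.252 to 0.841, Snrpd1 from -0.0511 to 0.212, Snrpc from -0.674 to 0.0615 and Prpf3 from -0.262 to 0.0419.

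Libraries share replicate numbers, but same-numbered libraries did not deviate together (correlations of -0.029, -0.021 and -0.0055 over 6307 genes), and no library correlated best with its own number. With the replicate block 3245 genes were called, with 13 spliceosome genes higher and 4 lower, and 29 other splicing genes. Snrpd2 was called under the block (adjusted p = 0.00622) and Snrnp40 was not (0.0795). Depth limits genes with few reads: with 3 reads as the floor, levels under 4.02 to 4.85 normalized reads are not detectable in a single Mov10 KO library.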
